A study of Mus musculus with 12 samples.

Results

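The genes described here encode the molecules of the mouse major histocompatibility complex (MHC) and the machinery that loads them with peptides. They were chosen by name: every gene symbol in the count tables that begins with H2-, which gave 42 genes, and 12 genes named one by one (Cd74, Ciita, B2m, Tap1, Tap2, Tapbp, Nlrc5, Psmb8, Psmb9, Psmb10, Ctss and Cd1d1). The 54 genes are part of 23337 in the tables. By role, 2 are classical class I heavy chains, 27 non-classical class I heavy chains and 8 encode the class I light chain or its loading machinery. A further 5 are class II chains, 8 load or control class II, and 1 (Cd1d1) is a class I-like gene outside the complex. The last 3 carry an H2 symbol without presenting antigen as far as known or are a pseudogene: H2-Ke2, now called Pfdn6, a subunit of a chaperone; H2-Ke6, now called Hsd17b8, a dehydrogenase; and the pseudogene H2-K2. The annotation (GENCODE M21, GRCm38, the assembly that the submitters' processing notes name as mm10) held 1 matching gene for 51 of the 54. Of these, 44 lie on chromosome 17, where the mouse complex is, 2 on chromosome 3 (Ctss and Cd1d1), 2 on chromosome 8 (Nlrc5 and Psmb10), and 1 each on chromosomes 2 (B2m), 16 (Ciita) and 18 (Cd74).

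RNA came from peeled urothelium, the epithelial lining of the urinary tract stripped from the tissue below it, in 12 samples, 4 groups of 3. The groups were mice labelled Stag2-WT (here WT) and mice labelled Stag2-KO (here KO), killed 1 week or 1 month after they were first given a TMX diet (TMX is taken to be tamoxifen). All 4 groups ate that diet for a week, WT mice included. STAG2 belongs to cohesin, which holds sister chromatids together and shapes chromatin loops. The labels give neither the allele, nor the driver of a recombinase, nor strain, age or sex, so it is not known here in which cells of the sheet Stag2 was deleted. The series was made to find out how the transcriptome of this epithelium changes after Stag2 is inactivated, and the question asked here is how antigen presentation genes differed between genotypes at each time. Libraries read the 3′ ends of polyadenylated RNA (QuantSeq), so a transcript gives reads from 1 end whatever its length. Levels are CPM, the count of a gene relative to the total of its library, with totals scaled by the trimmed mean of M values (TMM). This scaling was done within each time, so levels of 1 week and of 1 month do not share a common scaling.

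Class I molecules sit on nearly all nucleated cells and show peptides from inside the cell to CD8 T cells. Their heavy chain pairs with beta-2 microglobulin (B2m), peptides are cut by the immunoproteasome (Psmb8, Psmb9, Psmb10), pumped into the endoplasmic reticulum by Tap1 and Tap2 and handed over by tapasin (Tapbp), and Nlrc5 is the transactivator of these genes. Class II molecules are heterodimers of an alpha and a beta chain that show peptides from outside the cell to CD4 T cells, mainly on dendritic cells, macrophages and B cells. Their chains are escorted by the invariant chain (Cd74), which the protease cathepsin S (Ctss) trims, H2-DM exchanges the last fragment for a peptide, H2-O tempers H2-DM, and Ciita is the master activator. Epithelia can take up class II expression under interferon gamma, and urothelium holds resident macrophages and dendritic cells.

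Class II promoters share an ordered set of boxes upstream of the start, among them the X box and the Y box, and class I promoters hold related boxes and often an interferon response element. The promoters of 3 class II and 3 class I genes are shown so that the boxes of each group can be set beside its values. Each is 150 bases before to 20 bases after the start site in RefSeq (GRCm38.p6), 5′ to 3′ on the strand of the gene. Capitals mark every match, on either strand, to the Y box CTGATTGG, its core ATTGG (which the Y box contains), the X box core AACNGATG and the interferon response core GAAANNGAA.
H2-Aa, chr17:34287804-34287973, minus strand: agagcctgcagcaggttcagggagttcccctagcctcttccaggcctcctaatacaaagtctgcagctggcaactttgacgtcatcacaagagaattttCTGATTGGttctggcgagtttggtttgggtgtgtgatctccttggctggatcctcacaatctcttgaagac
H2-Eb1, chr17:34305717-34305886, plus strand: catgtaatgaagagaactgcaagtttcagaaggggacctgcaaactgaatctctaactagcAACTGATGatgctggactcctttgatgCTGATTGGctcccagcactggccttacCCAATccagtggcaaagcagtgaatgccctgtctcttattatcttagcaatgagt
H2-DMb1, chr17:34153041-34153210, plus strand: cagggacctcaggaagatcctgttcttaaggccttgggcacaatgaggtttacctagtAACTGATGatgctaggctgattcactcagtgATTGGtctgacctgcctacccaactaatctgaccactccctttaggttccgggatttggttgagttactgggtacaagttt
H2-K1, chr17:34000328-34000497, minus strand: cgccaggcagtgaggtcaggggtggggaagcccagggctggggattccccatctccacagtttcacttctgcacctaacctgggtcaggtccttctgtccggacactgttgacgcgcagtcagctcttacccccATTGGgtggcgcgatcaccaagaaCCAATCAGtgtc
H2-D1, chr17:35262944-35263113, plus strand: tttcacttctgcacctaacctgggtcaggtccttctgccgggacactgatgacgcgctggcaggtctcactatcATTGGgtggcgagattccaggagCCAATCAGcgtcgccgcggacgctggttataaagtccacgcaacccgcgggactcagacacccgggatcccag
B2m, chr2:122147537-122147706, plus strand: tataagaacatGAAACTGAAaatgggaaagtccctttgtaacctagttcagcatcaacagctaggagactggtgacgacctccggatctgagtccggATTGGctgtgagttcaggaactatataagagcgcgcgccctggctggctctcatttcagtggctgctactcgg
Counted from 0 at the start site, the Y box began at -51 in H2-Aa and at -62 in H2-Eb1, where the X box core began 5′ of it at -89. H2-DMb1 had the X box core at -92 and only the Y box core, at -61. In H2-D1 the Y box lay on the opposite strand at -53. In H2-K1 it lay on the opposite strand at 8 from the start site shown and at -6 from another RefSeq start site. B2m had the interferon response core at -139 and the Y box core at -53. Over the full RefSeq windows, which reach from 250 bases before to 50 after the start, the Y box was in 21 of 41 windows of these genes and in 4.1% of all 32851 windows. The Y box core was in 34 of 41 (37.4% of all), the X box core in 6 of 41 (2.32% of all) and the interferon response core in 4 of 41 (8.56% of all). A window was given for 38 of the 54 symbols and for neither H2-Ab1, Cd74, Ciita, Tap2, Nlrc5 nor Cd1d1. These are matches of letters, with no binding measured.

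Total counts ran from 5580961 to 9497088 per library, and the 54 genes took 0.148% to 0.414% of them. A level of 3 counts, used here as the floor, was 0.316 to 0.538 CPM. Stag2 itself was at 108 to 154 CPM in WT and 60.9 to 76.0 in KO at 1 week, and at 46.2 to 61.8 in WT and 19.2 to 37.9 in KO at 1 month, so no KO library was without it. Sex-linked genes also separated the libraries. At 1 week the 3 WT libraries had at most 13 counts of Xist and the 3 KO libraries 6392 to 10406, so that at this time genotype and sex, as read from Xist, cannot be told apart. At 1 month only KO replicate 3 was high in Xist (7764 counts, at most 28 in the other 5 libraries). The labels give a batch: all of 1 week is batch 1, and replicates 1 and 2 of both genotypes at 1 month are batch 2. Replicate 3 of both genotypes at 1 month is batch 3, so time and batch cannot be told apart either. The KO library of batch 3 was the one high in Xist. Within batch 3, genotype and sex, as read from Xist, thus cannot be told apart. KO replicate 3 at 1 week stood apart in several of the genes below, and also across genes at large. The chi-square per degree of freedom between its counts and those of KO replicates 1 and 2 was 138 and 198. Between KO replicates 1 and 2 that value was 59.6. The urothelial markers Upk2 (at least 5284 counts) and Krt5 (at least 567 counts) were read in every library beside leukocyte genes such as Ptprc (64 to 290 counts).

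At 1 month, 2 of the 25 genes that passed the filter on low counts differed between genotypes. Both were class II genes that were lower in KO than in WT: Cd74 by 3.38-fold and H2-Ab1 by 2.14-fold. Among all 12139 genes tested at 1 month, 2.22% passed (1.22% lower and 0.997% higher in KO). At 1 week none of 26 tested genes passed, where 0.0627% of 12754 genes did (0.0470% lower and 0.0157% higher in KO). The leading differences at 1 week were on the class I side, with B2m 3.88-fold and Psmb9 4.004-fold lower in KO by the fit, neither past the threshold. Leaving out 1 library at a time, the count at 1 month ran from 1 to 5 (5 without WT replicate 3, 4 without KO replicate 3). At 1 week it was 1 without KO replicate 3, where 320 of all genes passed beside 8 in the main fit, and otherwise 0. Without the batch covariate the count at 1 month was 0. Unless another is named, the test was edgeR's quasi-likelihood test with Benjamini-Hochberg adjustment over all genes, with a threshold of 0.05, and batch was a covariate at 1 month. A fold change is KO over WT on the log2 scale with its standard error.

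**Figure D1:**
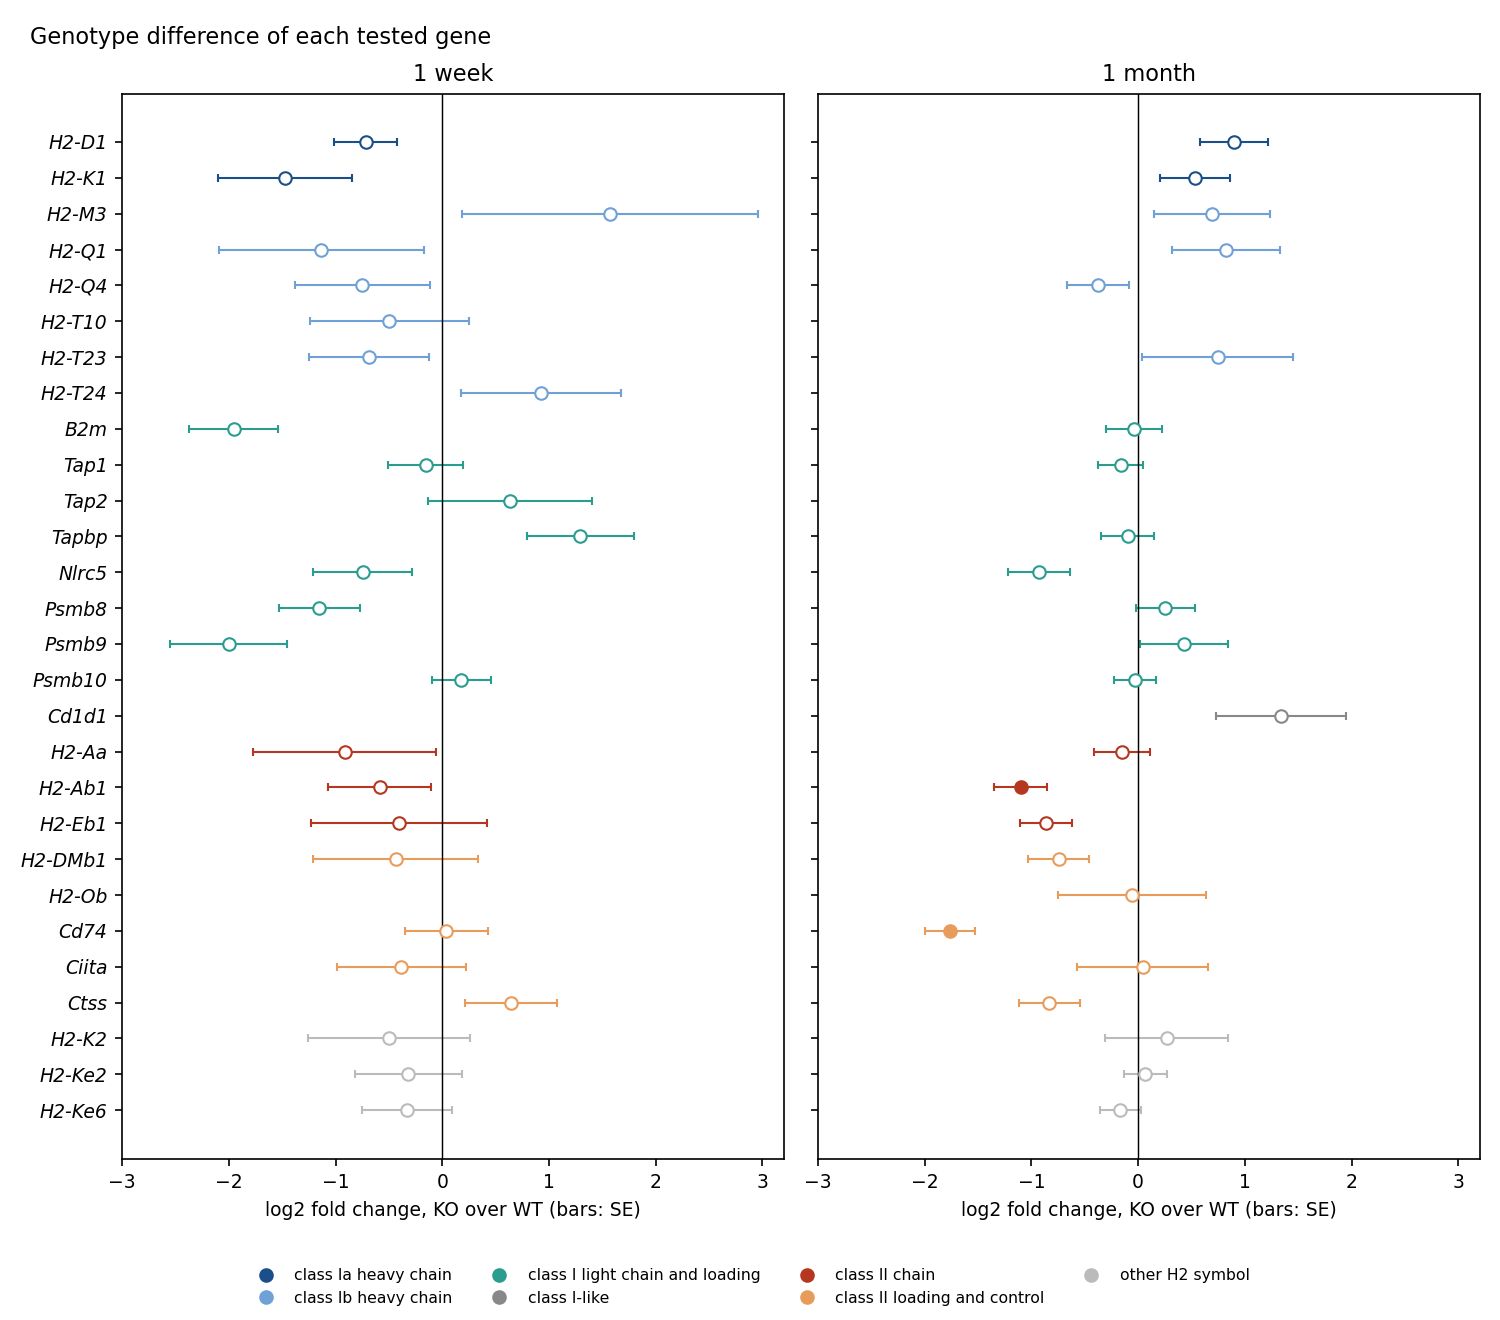
Log2 fold change, KO over WT, of the 28 genes tested at either time, in the 1 week (left) and 1 month (right) libraries, with bars for the standard error and colours for the role of the gene. Filled points passed an adjusted p of 0.05, which only Cd74 and H2-Ab1 at 1 month did, and a gene without a point was not tested at that time.

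Among the class II chains, H2-Ab1 (the beta chain of the I-A molecule, ENSMUSG00000073421.6, chr17:34257689-34269419) was at 218, 308 and 260.1 CPM in the 3 WT libraries of 1 month and at 84.9, 118 and 178 CPM in the 3 KO libraries. Every WT library was above every KO library, and the group means were 262 ± 44.9 CPM (SD, n = 3) and 127 ± 47.0 CPM (SD, n = 3). The log2 fold change was -1.10 (SE 0.25), with an adjusted p of 0.042 in edgeR. This call depended on single libraries: the adjusted p was 0.0757 without WT replicate 1, 0.195 without WT replicate 2, 0.152 without KO replicate 1, 0.109 without KO replicate 2 and 0.482 without the batch covariate. Within batches, the log2 difference was -1.36 in batch 2 and -0.55 in batch 3.

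H2-Eb1, the beta chain of the I-E molecule (chr17:34305867-34316674), had 165, 280.1 and 324 CPM in WT and 99.5, 139 and 187 CPM in KO at 1 month. WT replicate 1 lay below KO replicate 3, so the groups overlapped, though WT was above KO in each batch. The log2 fold change was -0.86 (SE 0.24), which did not pass (edgeR, adjusted p = 0.077). It passed without a filter on low counts (edgeR, adjusted p = 0.0101), with DESeq2 (adjusted p = 0.0191) and without WT replicate 3 (edgeR, adjusted p = 0.0466). The partner of H2-Ab1, the alpha chain H2-Aa (chr17:34282744-34287823), had another pattern. Its WT libraries read 63.0, 99.0 and 318 CPM and its KO libraries 52.2, 99.8 and 267 CPM, so both libraries of batch 3 were high whatever the genotype. The log2 fold change was -0.15 (SE 0.26), not past the threshold (edgeR, adjusted p = 0.772). The other class II chain genes were hardly read: H2-Eb2 had at most 4 counts in a library and H2-Ea-ps 0 in all 12, which allows up to 3 counts per library (counting error only).

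The 3 class II chains tested at 1 week did not pass, and 1 library set much of the picture. H2-Ab1 was at 100.01, 69.9 and 73.4 CPM in WT and at 69.6, 72.1 and 19.98 CPM in KO. H2-Aa was at 107, 105 and 46.6 CPM in WT and at 34.4, 97.2 and 5.50 CPM in KO, and H2-Eb1 at 122, 83.1 and 58.1 CPM in WT and at 98.2, 93.8 and 6.32 CPM in KO. KO replicate 3 was the lowest library of all 6 for each of the 3 chains. Log2 fold changes were -0.59 (SE 0.48) for H2-Ab1, -0.91 (SE 0.86) for H2-Aa and -0.41 (SE 0.83) for H2-Eb1, with edgeR adjusted p of 0.575, 0.620 and 0.827. Without that library the values were -0.24 for H2-Ab1, -0.42 for H2-Aa and 0.083, on the other side of 0, for H2-Eb1. Without KO replicate 2 they were -0.89 for H2-Ab1 and -2.14 for H2-Aa.

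Of the genes that load class II, Cd74 (ENSMUSG00000024610.15), which encodes the invariant chain, had the widest separation. At 1 month it was at 502, 612 and 293 CPM in WT and at 121, 184 and 101 CPM in KO. All 3 WT libraries were above all 3 KO libraries, with means of 469 ± 162 CPM (SD, n = 3) and 135 ± 43.1 CPM (SD, n = 3). The log2 fold change was -1.76 (SE 0.23), with an adjusted p of 0.0034 in edgeR, and the differences within batch 2 and batch 3 were -1.88 and -1.52. Without KO replicate 3, the library high in Xist, it was -1.87 (adjusted p = 0.000594 in edgeR). At 1 week Cd74 was at 118, 68.2 and 118 CPM in WT and at 102, 64.3 and 146 CPM in KO. These overlap, and the log2 fold change was 0.04 (SE 0.39, edgeR adjusted p = 0.972). In KO replicate 3 of 1 week, where the 3 chains were lowest, Cd74 was at the highest level of the 6 libraries.

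Ctss, which trims the invariant chain, was at 41.2, 38.8 and 36.2 CPM in WT and at 12.5, 27.6 and 25.6 CPM in KO at 1 month. The groups did not overlap, and the log2 fold change of -0.83 (SE 0.29) did not pass (edgeR, adjusted p = 0.125); without a filter on low counts it did (edgeR, adjusted p = 0.0354). H2-DMb1, a chain of the peptide editor H2-DM, read 16.3, 19.6 and 22.0 CPM in WT and 6.89, 11.5 and 17.6 CPM in KO, with a log2 fold change of -0.75 (SE 0.29) that did not pass either (edgeR, adjusted p = 0.164). Its near copy H2-DMb2 had at most 4 counts, and H2-DMa, the alpha chain of the editor, at most 2 counts in any library. Reads of near copies such as H2-DMb1 and H2-DMb2 may be split or lost in counting.

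Ciita, the master activator, was low: 1.18, 1.26 and 1.83 CPM in WT and 1.85, 2.23 and 0.606 CPM in KO at 1 month. The groups overlapped, with a fold change of 0.04 on the log2 scale (SE 0.62; edgeR, adjusted p = 0.977). H2-Ob, a chain of H2-O, had a log2 fold change of -0.06 (SE 0.69). At 1 week, Ctss was at 49.3, 35.2 and 27.4 CPM in WT and at 43.0, 93.3 and 37.9 CPM in KO, H2-DMb1 at 13.4, 7.93 and 6.004 in WT and at 8.76, 10.2 and 0.816 in KO, and Ciita at 4.13, 2.45 and 1.45 in WT and at 1.21, 3.196 and 1.63 in KO. All 3 overlapped and none passed (edgeR, adjusted p of 0.494, 0.797 and 0.771).

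**Figure D2:**
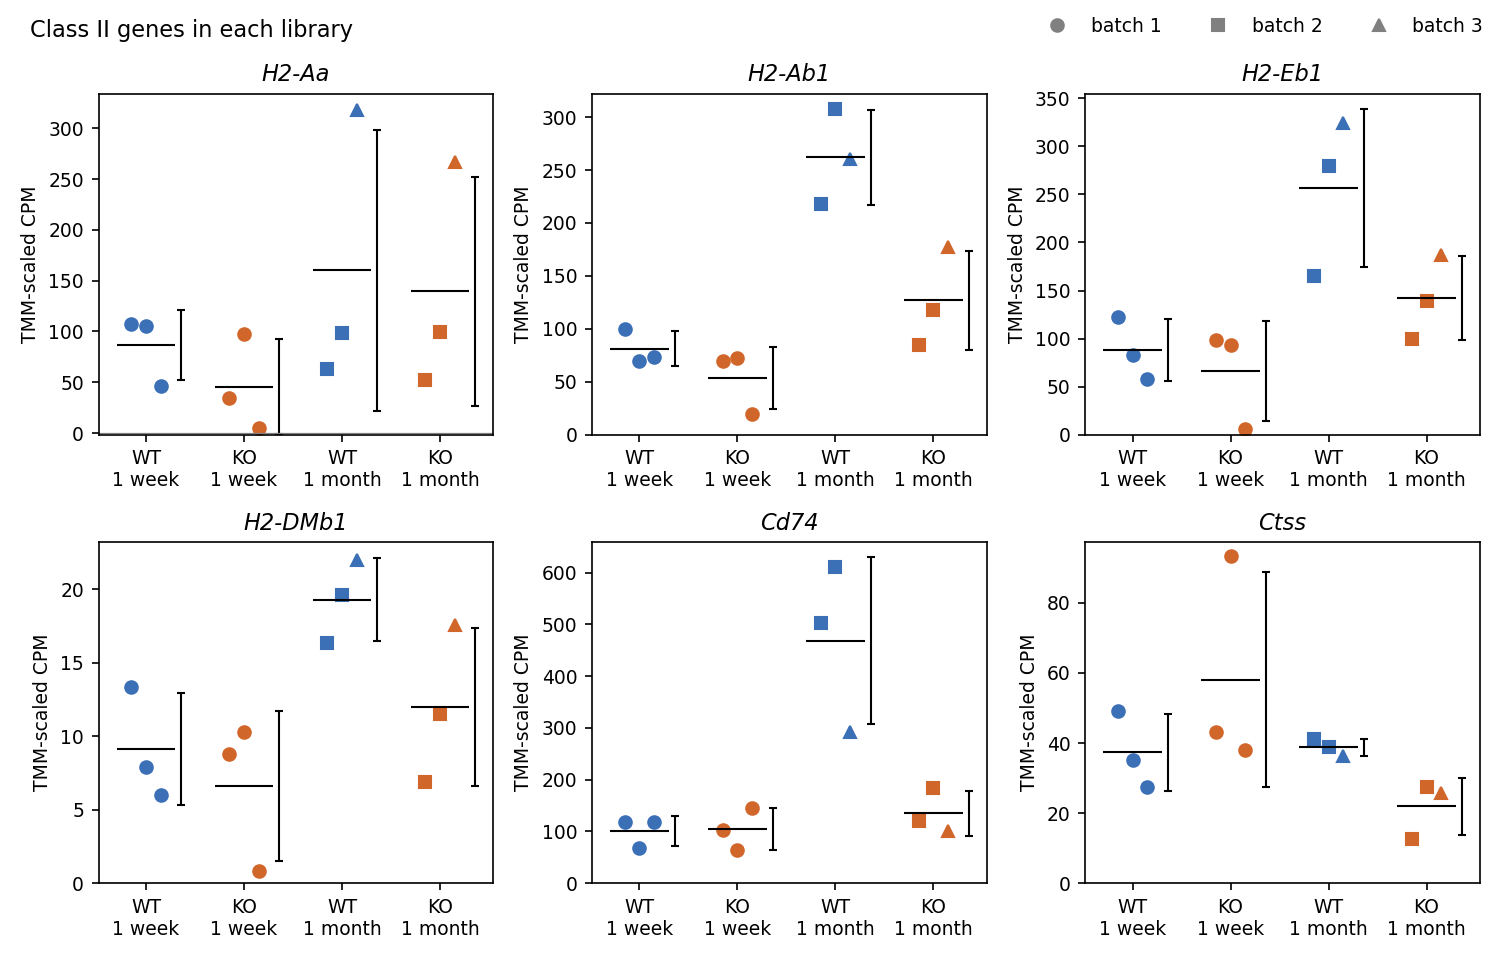
TMM-scaled CPM of 6 class II genes in each library by genotype and time, with WT in blue, KO in orange, the marker shape for the batch, a line for the mean and a bar for the SD of 3 libraries. At 1 month the WT points of Cd74, H2-Ab1 and Ctss lie above all KO points, while H2-Aa follows the batch. At 1 week KO has 1 library near 0 for H2-Aa, H2-Eb1 and H2-DMb1.

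Counted as a group, 8 of the 13 class II genes were tested at 1 month, of which 2 were called lower, beside 1.22% of all genes. Unadjusted p was below 0.05 for 5, each lower in KO, beside 21.5% of all genes tested in either direction and 10.3% in that direction. The median log2 fold change of the 8 was -0.79, beside -0.01 for all genes. In batch 2 and in batch 3 taken alone, 6 of the 8 were lower in KO in both and 0 higher in both. No share over all genes was taken for this count. Batch 3 has 1 library of each genotype, and its KO library was the one high in Xist. At 1 week the 7 tested had a median of -0.41, beside 0.02 for all genes, and none was called. Without the low KO replicate 3 of 1 week or the Xist-high KO replicate 3 of 1 month, none and 2 class II genes were called.

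The classical class I heavy chains had lower values in KO at 1 week and higher fitted values in KO at 1 month, none past the threshold. H2-K1 (chr17:33996017-34000347) was at 578, 568 and 289 CPM in the WT libraries of 1 week and at 187, 283 and 46.7 CPM in the KO libraries. H2-D1 (chr17:35262730-35267499) was at 332, 319.9 and 214 CPM in WT and at 146, 182 and 199 CPM in KO. For both genes every WT library was above every KO library, H2-K1 by only a small margin between WT replicate 3 and KO replicate 2. The log2 fold changes were -1.47 (SE 0.63) for H2-K1 and -0.72 (SE 0.30) for H2-D1, neither past the threshold (edgeR, adjusted p of 0.322 and 0.307). The value for H2-K1 was -2.07 without KO replicate 2 and -1.06 without KO replicate 3.

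At 1 month H2-K1 was at 159, 209 and 666 CPM in WT and at 299, 463 and 457 CPM in KO, and H2-D1 at 63.6, 89.3 and 436 CPM in WT and at 195, 223 and 374 CPM in KO. The WT libraries of batch 2 were the lowest and the WT library of batch 3 the highest of the 6 for both genes. The fits gave log2 fold changes of 0.53 (SE 0.33) for H2-K1 and 0.90 (SE 0.32) for H2-D1 (edgeR, adjusted p of 0.376 and 0.143). The batches did not give the same sign: H2-K1 was 1.02 higher in KO in batch 2 on the log2 scale and differed by -0.54 in batch 3, and H2-D1 by 1.45 and -0.22. In batch 2 alone, with 2 libraries a group, both passed, with log2 fold changes of 1.06 and 1.46 (edgeR, adjusted p of 0.0205 and 0.0025). Since batch 3 has 1 library of each genotype, its own difference has no replicate check. Its KO library was also the one high in Xist, so genotype and sex cannot be told apart in that difference.

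B2m (ENSMUSG00000060802.8, chr2:122147686-122153083), the light chain that all class I molecules share, was at 913, 719 and 728 CPM in the WT libraries of 1 week and at 266, 241 and 100.1 CPM in the KO libraries. The means were 786 ± 109 CPM (SD, n = 3) and 203 ± 89.6 CPM (SD, n = 3), and the groups stood far apart. The log2 fold change was -1.96 (SE 0.42), unadjusted p = 0.0019, which did not pass after adjustment (edgeR, adjusted p = 0.117). It did pass without KO replicate 3 (log2 fold change -1.68, edgeR adjusted p = 0.0188), and with DESeq2. Over all genes, 320 and 891 passed in those settings, beside 8 in the main fit. At 1 month B2m was at 332, 424 and 1176 CPM in WT and at 491, 451 and 696 CPM in KO. These overlap, with the highest value again in the WT library of batch 3, and the log2 fold change was -0.04 (SE 0.26, edgeR adjusted p = 0.948). It was 0.32 in batch 2 and -0.76 in batch 3.

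Among the immunoproteasome subunits, Psmb8 was at 28.8, 23.8 and 25.4 CPM in WT and at 14.0, 14.3 and 6.52 CPM in KO at 1 week, and Psmb9 at 6.80, 11.5 and 3.62 CPM in WT and at 1.75, 2.20 and 1.43 CPM in KO. Neither overlapped, with log2 fold changes of -1.15 (SE 0.38) and -2.00 (SE 0.55) that did not pass (edgeR, adjusted p of 0.221 and 0.168). DESeq2 called Psmb9. The remaining subunit, Psmb10, was at 34.8, 31.0 and 26.8 CPM in WT and at 35.2, 39.7 and 29.8 CPM in KO, for which the fit gave 0.18 (SE 0.27) on the log2 scale. At 1 month Psmb8 was at 15.5, 14.7 and 35.2 CPM in WT and 26.8, 19.4 and 26.1 in KO; Psmb9 at 1.18, 2.16 and 9.15 in WT and 2.58, 1.75 and 12.9 in KO, and Psmb10 at 65.0, 62.7 and 38.8 in WT and 58.9, 59.6 and 42.4 in KO. All 3 overlapped, and Psmb9 was high in both libraries of batch 3.

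Of the peptide pump and its helper, Tap1 was at 43.3, 30.0 and 39.3 CPM in WT and at 47.9, 23.5 and 29.8 CPM in KO at 1 week, and at 58.9, 50.8 and 42.0 in WT and 54.7, 41.8 and 38.5 in the KO libraries of 1 month. Both times overlapped, with log2 fold changes of -0.15 (SE 0.35) and -0.16 (SE 0.21). Tap2 was read at 1.87 to 14.3 CPM at 1 week, with its highest and lowest values both in KO, and missed the filter at 1 month. Tapbp (chr17:33915899-33929292) was the only gene of the 26 at 1 week whose KO libraries all lay above WT: 218, 209 and 212 CPM in WT against 340.2, 264 and 959.9 CPM in KO. The log2 fold change of 1.29 (SE 0.50) did not pass (edgeR, adjusted p = 0.286) and was 0.45 without KO replicate 3. At 1 month it was at 515, 466 and 315 CPM in WT and at 459.9, 297 and 429.7 CPM in KO, and the fit gave -0.10 (SE 0.25) on the log2 scale.

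Nlrc5, the class I transactivator, differed in sign from the heavy chains at 1 month. It was at 15.9, 13.5 and 13.3 CPM in WT and at 6.52, 7.97 and 7.88 CPM in KO. The groups did not overlap, the batches gave -0.85 and -0.63, and the log2 fold change of -0.93 (SE 0.29) did not pass (edgeR, adjusted p = 0.0968). At 1 week it was at 10.1, 8.74 and 5.59 CPM in WT and at 2.97, 4.74 and 6.93 CPM in KO, with a fold change of -0.74 on the log2 scale (SE 0.46; edgeR, adjusted p = 0.463). Cd1d1, which shows lipids rather than peptides to natural killer T cells, was tested at 1 month alone. It was at 0.589, 0.359 and 1.83 CPM in WT and at 0.984, 2.39 and 3.33 CPM in KO, near the floor, with a log2 fold change of 1.34 (SE 0.61) that did not pass (edgeR, adjusted p = 0.223).

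**Figure D3:**
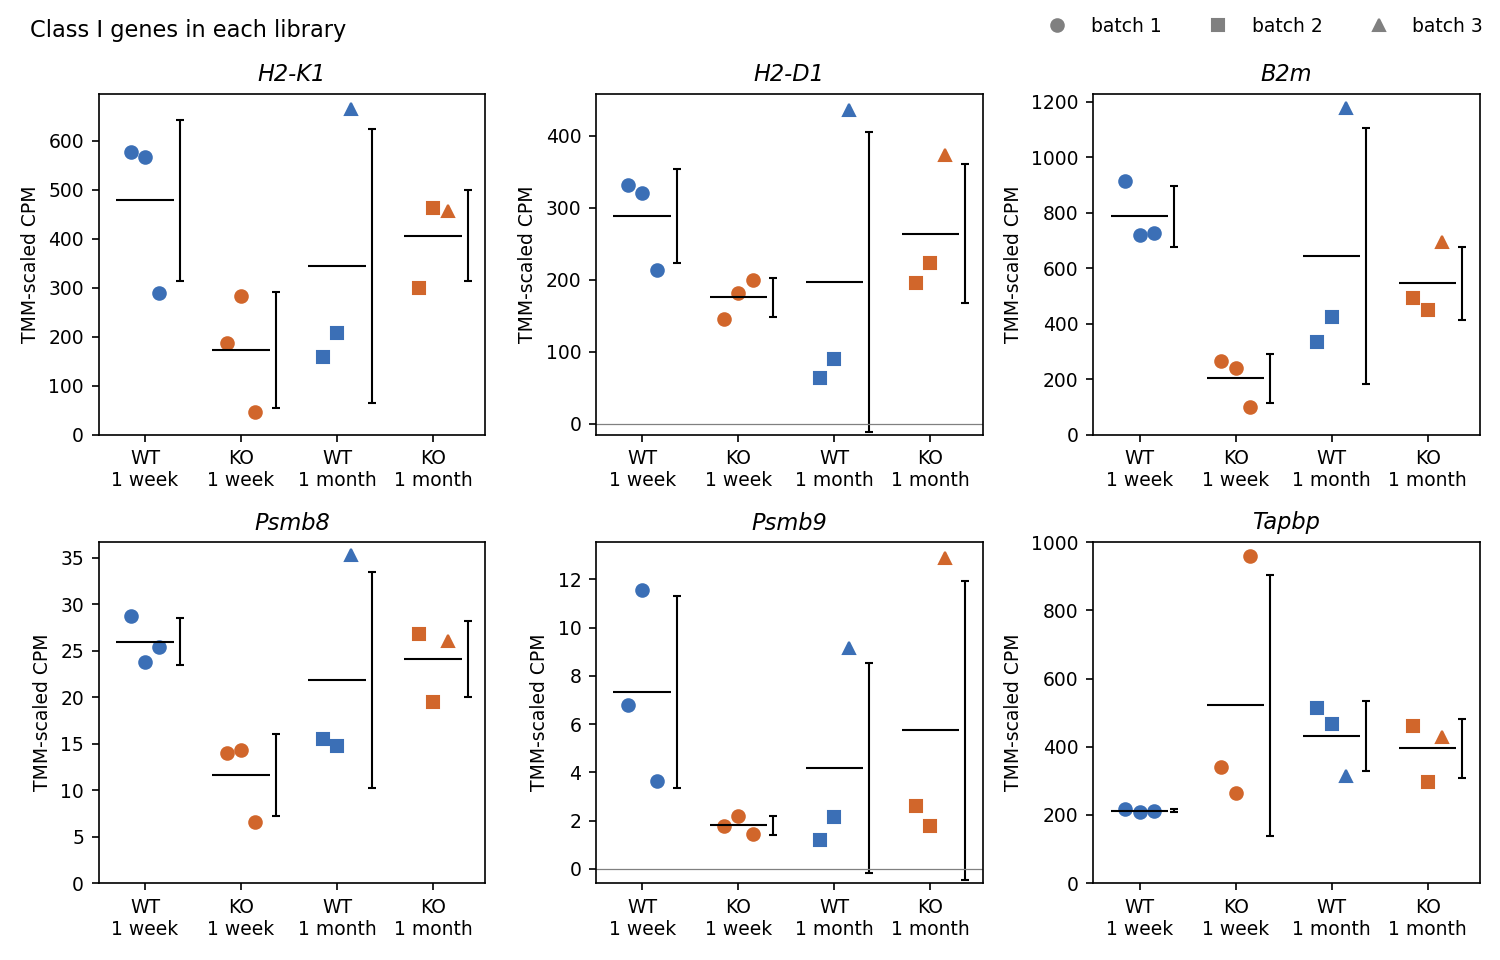
TMM-scaled CPM of 6 class I pathway genes in each library, drawn as for the class II genes (blue WT, orange KO, shape for batch, line for the mean, bar for the SD of 3 libraries, which may pass below 0). At 1 week the KO points of H2-K1, H2-D1, B2m, Psmb8 and Psmb9 lie below all WT points. At 1 month the WT library of batch 3 is far above the WT libraries of batch 2 for all of these 5.

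The non-classical heavy chains, some of which present to natural killer cells or present bacterial peptides, were mostly at the limit of detection. Of 27, 6 were tested at 1 week and 4 at 1 month, and none was called. H2-Q4 was the highest, at 5.50 to 29.999 CPM across the 12 libraries. H2-T23 (Qa-1), a ligand of inhibitory receptors on natural killer cells, was at 0 to 9.46 CPM and highest in the libraries of batch 3. H2-M3, which presents formylated peptides, was at 14.3 CPM in KO replicate 3 of 1 week and at 0.110 to 3.35 CPM in the other 11. H2-Q1 was at 0 to 3.19, H2-T10 at 0.159 to 2.14 and H2-T24 at 0.196 to 6.73 CPM. Over all roles, 26 of the 54 genes were tested at neither time. Among these, 11 had 0 counts in all 12 libraries and the highest single count was 31 (H2-Q6). H2-K1, H2-D1 and the H2-Q, H2-T and H2-M genes share long stretches of sequence, and how reads that fit several of them were counted is not given in the sources used here, so their levels are uncertain. The H2-named genes outside presentation did not pass at either time: H2-Ke2 was at 19.0 to 73.0 CPM, H2-Ke6 at 18.6 to 114 CPM and H2-K2 at 0.204 to 5.95 CPM, and their lowest values were again in KO replicate 3 of 1 week.

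By group, 16 of the 37 class I genes (heavy chains, light chain and loading) were tested at 1 week and 13 at 1 month, with none called. Their median log2 fold change was -0.70 at 1 week and 0.25 at 1 month. Unadjusted p was under 0.05 for 5 of 16 at 1 week, 4 of them lower in KO, beside 15.5% of all genes tested (5.03% lower), and for 2 of 13 at 1 month, beside 21.5%. At 1 week 5 genes (H2-K1, H2-D1, B2m, Psmb8 and Psmb9) had every KO library below every WT library, and 1 (Tapbp) every KO library above. Over all genes at 1 week, 12.5% were lower and 14.1% higher without overlap. At 1 month 4 of the 25 tested genes of all roles were lower without overlap (Cd74, H2-Ab1, Ctss and Nlrc5) and none higher. Over all genes these shares were 7.61% and 5.68%. Of the 13 class I genes only 1, Nlrc5, was among them. Of the 13 class I genes at 1 month, 7 were higher in KO in batch 2 and lower in KO in batch 3, 2 were lower and 2 higher in both batches, and 2 were lower in batch 2 and higher in batch 3. No share over all genes was taken for these counts by batch.

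To set class II against class I within each library, the CPM of the 11 class II chain, H2-DM, H2-O and Cd74 genes and of the 30 class I heavy chain and B2m genes were summed. At 1 week the class I sum was 1862, 1637 and 1273 CPM in WT and 635, 721 and 386 CPM in KO, and the class II sum 463, 336 and 304 CPM in WT and 316, 341 and 179.8 CPM in KO. Class I sums did not overlap and class II sums did. The log2 ratio of class II over class I was -2.12 ± 0.14 (SD, n = 3) in WT and -1.06 ± 0.05 (SD, n = 3) in KO, a difference of 1.06 in which all 3 KO libraries lay above all 3 WT libraries. Without B2m and Cd74 the log2 ratios were -1.46, -1.78 and -1.55 in WT and -0.79, -0.80 and -3.09 in KO, a difference of 0.04. KO replicates 1 and 2 then still lay above all WT libraries and KO replicate 3 below them. Without KO replicate 3, an alternative added after seeing the data, the difference was 0.81. As a mean of log2 CPM per gene the difference was -0.12, and 0.23 without that library. That mean weights every gene alike, while only 9 of the 30 class I and 5 of the 11 class II genes passed the filter at 1 week.

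At 1 month the class I sum was 582, 758 and 2321 CPM in WT and 1019.8, 1171 and 1552 CPM in KO. The class II sum was 966, 1322 and 1219 CPM in WT and 366, 556 and 753 CPM in KO, with every WT library above every KO library. The log2 ratio was 0.73, 0.80 and -0.93 in WT and -1.48, -1.08 and -1.04 in KO, so the WT libraries of batch 2 were the only ones of the 12 in which the class II sum exceeded the class I sum. The mean difference, KO minus WT, was -1.40, made up of -2.04 in batch 2 and -0.11 in batch 3. In batch 3 both sums were lower in KO by like amounts, 0.69 for class II and 0.58 for class I on the log2 scale, whereas in batch 2 class II differed by -1.33 and class I by 0.72. The KO library of batch 3 was the one high in Xist. The ratio is a sum over chosen genes and carries no test.

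**Figure D4:**
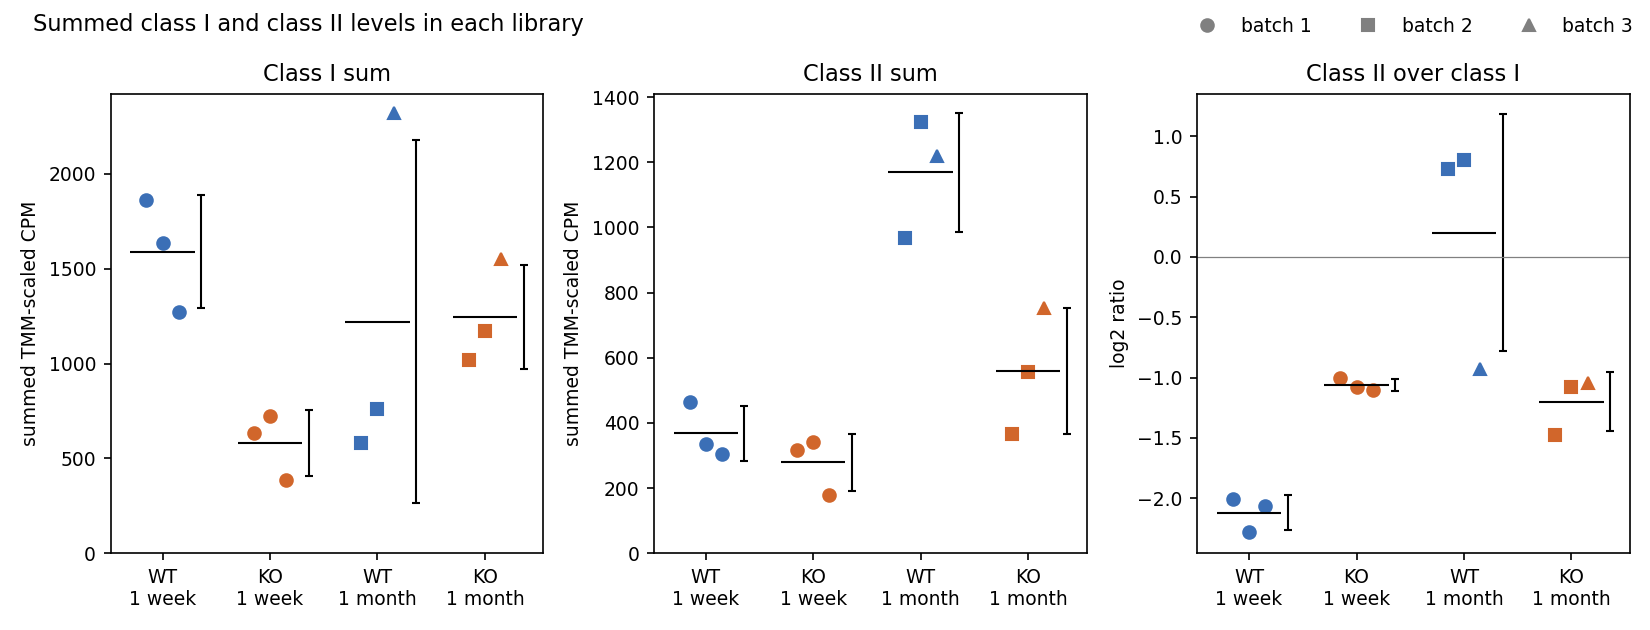
Summed TMM-scaled CPM of 30 class I genes (left) and 11 class II genes (middle) and the log2 ratio of class II over class I (right) in each library, with WT in blue, KO in orange, the shape for the batch, a line for the mean and a bar for the SD of 3 libraries. KO is below WT in the class I sum at 1 week and in the class II sum at 1 month. In the ratio, WT replicates 1 and 2 of 1 month lie above 0 and all others below.

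Whether the genotype difference itself changed between times was tested in all 12 libraries with an interaction term. None of the 30 genes tested passed, where none (0%) of 13122 did, and for 8 the unadjusted p was below 0.05, beside 19.9% of all genes tested (edgeR). DESeq2 called 4 of them. The difference between the differences, 1 month minus 1 week, was 1.93 (SE 0.51) for B2m and -1.78 (SE 0.48) for Cd74, both with an edgeR adjusted p of 0.111. It was 2.01 (SE 0.80) for H2-K1, 1.63 (SE 0.49) for H2-D1 and -0.50 (SE 0.60) for H2-Ab1 (edgeR, adjusted p of 0.205, 0.134 and 0.654). B2m passed without KO replicate 3 of 1 week (edgeR, adjusted p = 0.0389). A difference between times in these genes was thus not shown at the adjusted threshold. The genotype difference of H2-Ab1 at 1 month was not shown to differ from that at 1 week.

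Further genes of the pathways gave few calls. Among all genes tested at 1 month, 0.997% were called higher and 1.22% lower in KO. Of 18 other class I pathway genes, 1 was called higher in KO at 1 month: Mr1, a class I-like molecule that shows vitamin metabolites to mucosal T cells, at 8.64, 7.19 and 15.9 CPM in WT and 15.7, 16.4 and 36.7 CPM in KO. WT replicate 3 and KO replicate 1 overlapped, WT was below KO in each batch, and the log2 fold change was 1.09 (SE 0.25, edgeR adjusted p = 0.0429). Of 16 other class II pathway genes, 1 was higher and 1 lower. Ifi30, a lysosomal thiol reductase that opens disulfide bonds for class II loading, was at 6.09, 12.2 and 34.0 CPM in WT and 23.4, 34.6 and 55.6 CPM in KO, 1.31 (SE 0.31) higher on the log2 scale by the fit (edgeR, adjusted p = 0.0476). Ctsd, the lysosomal protease cathepsin D, was at 5281, 3624 and 2304 CPM in WT and 1496, 1348 and 1102 CPM in KO, without overlap, and its log2 fold change was -1.45 (SE 0.27, edgeR adjusted p = 0.0222). The other 17 and 14 did not pass, nor did any of either list at 1 week. Of 25 genes of the interferon gamma route, 19 were tested at 1 week and 18 at 1 month, and none was called. The cytokine gene Ifng had at most 1 count in a library. Irf1, a transcription factor that interferon gamma induces and that acts on class I promoters, had a log2 fold change of 1.08 at 1 month (edgeR, adjusted p = 0.052).

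Markers of cells that can carry class II were read in the same libraries. In bulk tissue, fewer cells of a type and less RNA per cell cannot be told apart. Of 12 macrophage markers, 10 were tested at 1 month and 3 were called, all lower in KO: C1qa by -1.95 (SE 0.31), C1qb by -1.38 (SE 0.28) and Csf1r by -1.13 (SE 0.26) on the log2 scale (edgeR, adjusted p of 0.0121, 0.0302 and 0.0429). Over all genes tested at 1 month, 1.22% were called lower in KO. C1qa was at 361, 199.6 and 97.3 CPM in WT and 48.1, 60.3 and 46.2 CPM in KO. By sign 9 of the 10 were lower in KO and 1, Cd14, higher by 1.02 (SE 0.50, edgeR adjusted p = 0.262). Without overlap 5 were lower, beside 7.61% of all genes. C1qc overlapped, at -0.41 (SE 0.29, edgeR adjusted p = 0.422). The summed macrophage level was 478 to 940 CPM in WT and 247 to 324 CPM in KO, apart like the class II sum. No library had 0 for C1qa, Csf1r or Adgre1 (listed as Emr1, 1 to 53 counts). The called genes took much of that sum: in WT replicate 1, C1qa was at 361, C1qb at 148 and Csf1r at 358 of 940 CPM. The same sum at 1 week was 116 to 211 CPM in WT and 281 to 620 CPM in KO, higher in every KO library, none of 10 tested markers was called, and the class II sum was not higher in KO. The part of macrophages in the class II result was not tested.

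**Figure D5:**
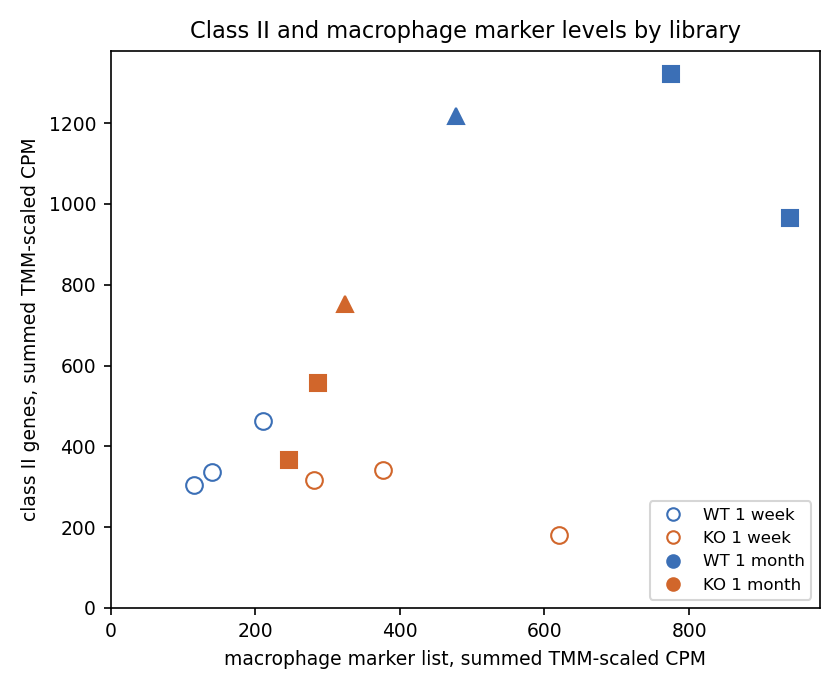
Summed TMM-scaled CPM of 11 class II genes (vertical) against that of the macrophage marker list (horizontal) in the 12 libraries, with WT in blue, KO in orange, open markers for 1 week, filled markers for 1 month and the shape for the batch. At 1 month the 3 WT libraries are above the 3 KO libraries on both axes. At 1 week KO libraries lie farther right than WT without lying higher. CPM was scaled within each time, not across both.

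Of 12 dendritic cell markers, 6 were tested at 1 month and 1 called, Fscn1 (fascin, an actin bundling protein of mature dendritic cells that other cells also make), higher in KO by 1.12 (SE 0.23, edgeR adjusted p = 0.0306). Clec10a, a lectin of dendritic cells and macrophages, was at 2.16, 5.57 and 19.7 CPM in WT and at 8.36, 24.9 and 44.7 CPM in KO, groups that overlapped, with KO the higher in each batch. Its log2 fold change was 1.72 (SE 0.44), which did not pass (edgeR, adjusted p = 0.0683), and that of Siglech was 1.00 (edgeR, adjusted p = 0.357). Of all genes tested at 1 month, 0.997% were called higher in KO. By sign alone 3 of the 6 dendritic cell markers were higher and 3 lower in KO. Itgax was lower by the fit, with a log2 fold change of -2.02 (SE 0.55) that did not pass (edgeR, adjusted p = 0.079), and Flt3 had at most 10 counts, with 0 in 3 libraries. Fscn1 alone was at 30.05, 42.8 and 93.4 CPM in WT and at 88.3, 100.4 and 144.9 CPM in KO, and took much of the list's sum. The summed level of the list was 77.4 to 151 CPM in WT and 129 to 212 CPM in KO at 1 month, and 106 to 137 and 24.9 to 238 CPM at 1 week. B cell markers were near 0: none of 6 was tested at either time, Cd79a had at most 5 counts, and the list summed to 1.04 to 4.74 CPM in any library. Of 10 T and natural killer cell markers 3 were tested and none called, with sums of 5.18 to 18.3 CPM and 2 to 21 counts of Cd3e. The leukocyte list had 0 of 10 called, with sums of 213 to 299 CPM in WT and 164 to 214 CPM in KO at 1 month and of 155 to 209 and 194 to 246 CPM at 1 week. By sign 7 of the 10 were lower and 3 higher in KO at 1 month, with a median log2 fold change of -0.76. Unadjusted p was below 0.05 for 6 (edgeR), beside 21.5% of all genes. Without overlap 4 were lower and 0 higher, beside 7.61% and 5.68% of all genes. At 1 week 8 were higher and 2 lower, with a median of 0.65.

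Marker lists of other cells of the tissue were read as well. The stromal and endothelial list had 0 of 12 called at either time. Its sum was 3613 to 5892 CPM in WT and 5795 to 11152 CPM in KO at 1 week, and 10471 to 13576 and 8131 to 9545 CPM at 1 month. By sign 11 of the 12 were higher in KO at 1 week, with a median log2 fold change of 1.37. Unadjusted p was below 0.05 for 8 of the 12 (edgeR), beside 15.5% of all genes. Without overlap 7 were higher and 0 lower, beside 14.1% and 12.5% of all genes. At 1 month 6 were higher and 6 lower, with a median of 0.0084. The urothelial list had 1 of 18 called, Krt20 (a keratin of the umbrella cells at the surface), lower in KO at 1 month by -1.76 on the log2 scale (SE 0.25, edgeR adjusted p = 0.00601). Krt5, a keratin of the basal cells, was at 111, 206 and 504 CPM in WT and at 603, 615 and 671 CPM in KO at 1 month, higher in every KO library, with a log2 fold change of 1.44 (SE 0.34) that did not pass (edgeR, adjusted p = 0.0505). Epcam (0.75) and Trp63 (0.71) also had positive log2 fold changes that did not pass (edgeR, adjusted p of 0.0974 and 0.194). The share of all genes called lower in KO at 1 month was 1.22%. By sign alone 6 of the 18 urothelial genes were higher and 12 lower in KO at 1 month. Among the lower ones, Upk1a (-1.06), Upk3b (-0.90) and Krt18 (-0.73) did not pass either (edgeR, adjusted p of 0.0902, 0.0757 and 0.120). Its sum was 14024 to 16995 CPM in WT and 12414 to 15924 CPM in KO at 1 week, and 17971 to 31639 and 12923 to 18853 CPM at 1 month. No gene of any of the marker lists was called at 1 week. The part of these cells in the class I and class II values was not tested.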

How the data were processed

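The authors deposited 2 tables of raw counts per gene, 1 for each time, with a column for each of 12 libraries, 3 per group. Per the labels' protocols, libraries were stranded 3′ libraries for which HTSeq's strand-aware setting applies; the submitters' processing notes name Bowtie, TopHat, HTSeq, DESeq2 and mm10. Versions, annotation and the treatment of reads with several matches are not given in the sources used here. Columns were matched to samples by library name. For WT replicate 3 at 1 month the title carries another animal number than the library name, and the latter was used. Samples carry separate numbers, but no label says that each is 1 animal, so p-values measure the spread between these samples. Replicates were numbered in accession order and pair nothing.

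Each time was fitted on its own with edgeR 4.0.16 (R 4.3.3): TMM scaling, default filter on low counts, robust quasi-likelihood test, two-sided, Benjamini-Hochberg adjustment over all genes tested, threshold 0.05, with batch as covariate at 1 month. The interaction used all 12 libraries with batch. The SE is the absolute log2 fold change over the square root of F. Within-batch values are differences of mean log2 CPM with a prior count of 2. DESeq2 1.42.0 was an alternative, beside other scalings, filters and left-out libraries. The fit was tested on simulated data. The lowest chi-square per degree of freedom between replicates was 9.10 over 12 pairs, so no pair looked like 1 library counted again.

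The genes and lists were chosen with earlier results of these data known. Every called gene and 19 anchor genes named by role were to be given in every library, the rest by range, and of each further list the called genes and defining markers. Scaling by library size alone would move the median of all genes by 0.22 on the log2 scale at 1 month and by 0.25 in the interaction.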

Additional observations from a re-analysis of the deposited data

How the results depend on the processing

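The counts of called genes depended on the settings. At 1 week the count of 0 became 2 with DESeq2 (B2m and Psmb9) and ran from 0 to 1 when a replicate was left out. Over all genes the count at 1 week rose as well, from 8 to 891 with DESeq2 and to 320 without KO replicate 3. At 1 month the count of 2 became 1 with scaling by library size alone, 5 without a filter, 4 with DESeq2, 0 without the batch covariate and 4 in batch 2 alone, and ran from 1 to 5 when a replicate was left out (5 without WT replicate 3, 4 without KO replicate 3, 1 without any of the other 4). In the interaction the count of 0 became 4 with DESeq2 and ran from 0 to 1 when a replicate was left out, 1 without KO replicate 2 or KO replicate 3 of 1 week. Cd74 at 1 month lost its call only without the batch covariate (edgeR, adjusted p = 0.242); H2-Ab1 lost it also under library size scaling (edgeR, adjusted p = 0.0667). The difference in the class II to class I ratio was 0.040 at 1 week without Cd74 and B2m and -0.12 there as a mean of log2 values, and 0.81 and 0.23 when KO replicate 3 was left out as well (added after seeing the data); it was -0.44 as such a mean at 1 month. Leaving out replicates it ran from 0.97 to 1.11 at 1 week and from -1.97 to -1.10 at 1 month. The mean of log2 values weights every gene alike, those that missed the filter on low counts included. No paired analysis was possible because the labels give the groups no shared replicate numbers.

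Changes of sign occurred only in values past no threshold. With library size alone, log2 fold changes were -0.043 for Cd74 at 1 week and, at 1 month, 0.178 for B2m, 0.054 for Tap1, 0.112 for Tapbp, 0.196 for Psmb10 and 0.085 for H2-Aa. Without a filter they were -0.020 for Cd74 at 1 week, and 0.010 for B2m and 0.019 for Psmb10 at 1 month; in batch 2 alone B2m was 0.32. Leaving out replicates, values at 1 week ran from -0.51 to 0.015 for Tap1, -0.29 to 1.28 for Tap2, -0.81 to 0.083 for H2-Eb1, -0.93 to 0.027 for H2-DMb1, -0.34 to 0.26 for Cd74 and -0.94 to 0.053 for Ciita. At 1 month they ran from -0.25 to 0.32 for B2m, -0.37 to 0.14 for Tapbp, -0.11 to 0.046 for Psmb10, -0.46 to 0.11 for H2-Aa and -0.22 to 0.73 for Ciita. Depth limits the genes near the floor, among them Ciita, Cd1d1, H2-Ob and most non-classical heavy chains.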

Other observations

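The chains of the I-A molecule did not keep 1 ratio across libraries, a pattern chosen after its values were seen. The log2 ratio of H2-Aa over H2-Ab1 counts was -1.79 and -1.64 in the WT libraries of batch 2 at 1 month and 0.29 in that of batch 3, and -0.70, -0.24 and 0.59 in the KO libraries in the same order. At 1 week it was 0.10, 0.59 and -0.66 in WT and -1.02, 0.43 and -1.86 in KO. In 3′ counting a value is not divided by transcript length, so the ratio serves only to compare libraries with each other.

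The log2 ratio of Cd74 over H2-Ab1 was 2.87 in KO replicate 3 of 1 week, while the other 11 libraries ranged from -0.81 to 1.20. The log2 ratio of B2m over the sum of H2-K1 and H2-D1 was 0.00, -0.30 and 0.53 in WT and -0.33, -0.94 and -1.30 in KO at 1 week, with every WT library above every KO library. At 1 month it was 0.58, 0.51 and 0.09 in WT and -0.01, -0.61 and -0.26 in KO, again without overlap. These ratios carry no test.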
